A study of Saccharomyces cerevisiae with 6 samples.

Results

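RNA processing genes of Saccharomyces cerevisiae that act at the 3' end of transcripts, in the exosome and in tRNA maturation were followed in 3 pools of DAmP strains. A list of 48 genes covered cleavage and polyadenylation, Nrd1-dependent termination, the exosome with its helicase Mtr4, RNase P with RNase MRP, and tRNA splicing. Of these, 31 had a value on at least 2 of the 6 arrays and form the set described here, out of 670 genes or unnamed probes valued that often. Genes were listed by function, with earlier results of these data known. The rule itself used the presence of values and no level or change. Of its 31 genes, 16 had a value on all 6 arrays and could be tested, and 15 had values on 2 to 5 arrays. Of the other 17 listed genes, SEN2 had a value on 1 array and 16 had none (CFT1, PTA1, GLC7, SWD2, PFS2, RNA14, RNA15, RRP4, RRP40, RRP42, RRP45, POP3, POP5, POP8, SNM1 and SEN15).

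A DAmP strain carries a resistance cassette right behind the stop codon of an essential gene. This gives the mRNA an extended 3' end that holds the strain's molecular barcode. The strain collection was crossed with a deletion of NMD2 (UPF2), with a deletion of NAM7 (UPF1), or with a deletion of YEL068C, which served as the reference, so that the haploid strains of every pool carried a DAmP allele, a query deletion and both resistance markers. All were mixes derived from BY4742/BY4741, grown for 18 generations with G418 and nourseothricin, and no pool was wild type. Each pool came from 1 cross and was read on 2 arrays, which the series text describes as technical replicates started from raw cells, so p-values measure technical spread. On each array barcodes amplified from RNA (Cy3) were set against barcodes from genomic DNA of the same pool (Cy5).

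Upf1 and Upf2 are core factors of nonsense-mediated decay, the pathway that degrades mRNAs on which translation ends far from a normal 3' end. In yeast, nascent mRNAs are cut and polyadenylated by the cleavage and polyadenylation factor (CPF) together with cleavage factors IA and IB, whereas short noncoding transcripts are terminated by Nrd1, Nab3 and the helicase Sen1. The exosome trims or degrades RNA from the 3' end, RNase P removes the 5' leader of tRNA precursors, and the Sen endonuclease and the ligase Trl1 remove tRNA introns. The values below are levels of the extended mRNAs of these genes and say nothing of the activity of their products.

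Each level is a log2 ratio that sets the RNA signal of a barcode over its genomic DNA signal. Its 0 is the array median, taken here over the 444 genes or unnamed probes with a value on all 6 arrays. The level is thus a measure of RNA per gene copy, in which the strain's share of the pool enters both sides. The labels do not settle which dye is the numerator. In the deposited sign, 10 of 11 abundant mRNAs valued on all arrays lay below 0 in the YEL068C pool (median -3.79), so the deposited value is likely DNA over RNA and the sign was turned. Were it the other way, every increase below would be a decrease. The arrays gave values for 658 to 798 probes, and 444 genes or unnamed probes with a value on all 6 arrays were tested together with limma. None of the deleted loci had a value, so the pool labels could not be checked on them. RPP1 was the 1 gene of the set within 100 kb of a deleted locus, NMD2.

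These mRNAs sat mostly below the array median in every pool. Over the 16 genes the median level was -0.80 in the NMD2 pool and -0.74 in the NAM7 pool, against -0.49 in the YEL068C pool, where that of all 444 features was -0.05. Of the 16, 12 lay below 0 in the NMD2 pool and 13 in the NAM7 pool, against 11 in the YEL068C pool, where 224 of 444 features did. Of the 16, HRP1 had the highest level within the YEL068C pool, 1.06 ± 0.09 (SD, n = 2 arrays), at rank 99 of 444. It encodes the single subunit of cleavage factor IB, an RNA-binding protein. CSL4 (an exosome cap subunit) followed at 0.65 ± 0.37 and MTR4 at 0.46 ± 0.92. The lowest of the 16 were YTH1 at -2.39 ± 0.07, SEN34 at -2.09 ± 0.09 and POP4 at -1.66 ± 0.34. YTH1 encodes a zinc-finger CPF subunit, SEN34 a catalytic subunit of the tRNA splicing endonuclease and POP4 an RNase P and MRP subunit. Of the genes with missing arrays, NAB3 (1.23) and DIS3 (1.17) lay above HRP1 in this pool, each over 2 arrays. RMP1 (-2.74, 2 arrays), TPT1 (-2.86, 1 array) and CLP1 (-2.66, 1 array) lay below YTH1. The SDs of YTH1 and SEN34 are smaller than the 0.30 between them, while CSL4 and MTR4 do not differ beyond their spread.

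**Figure D1:**
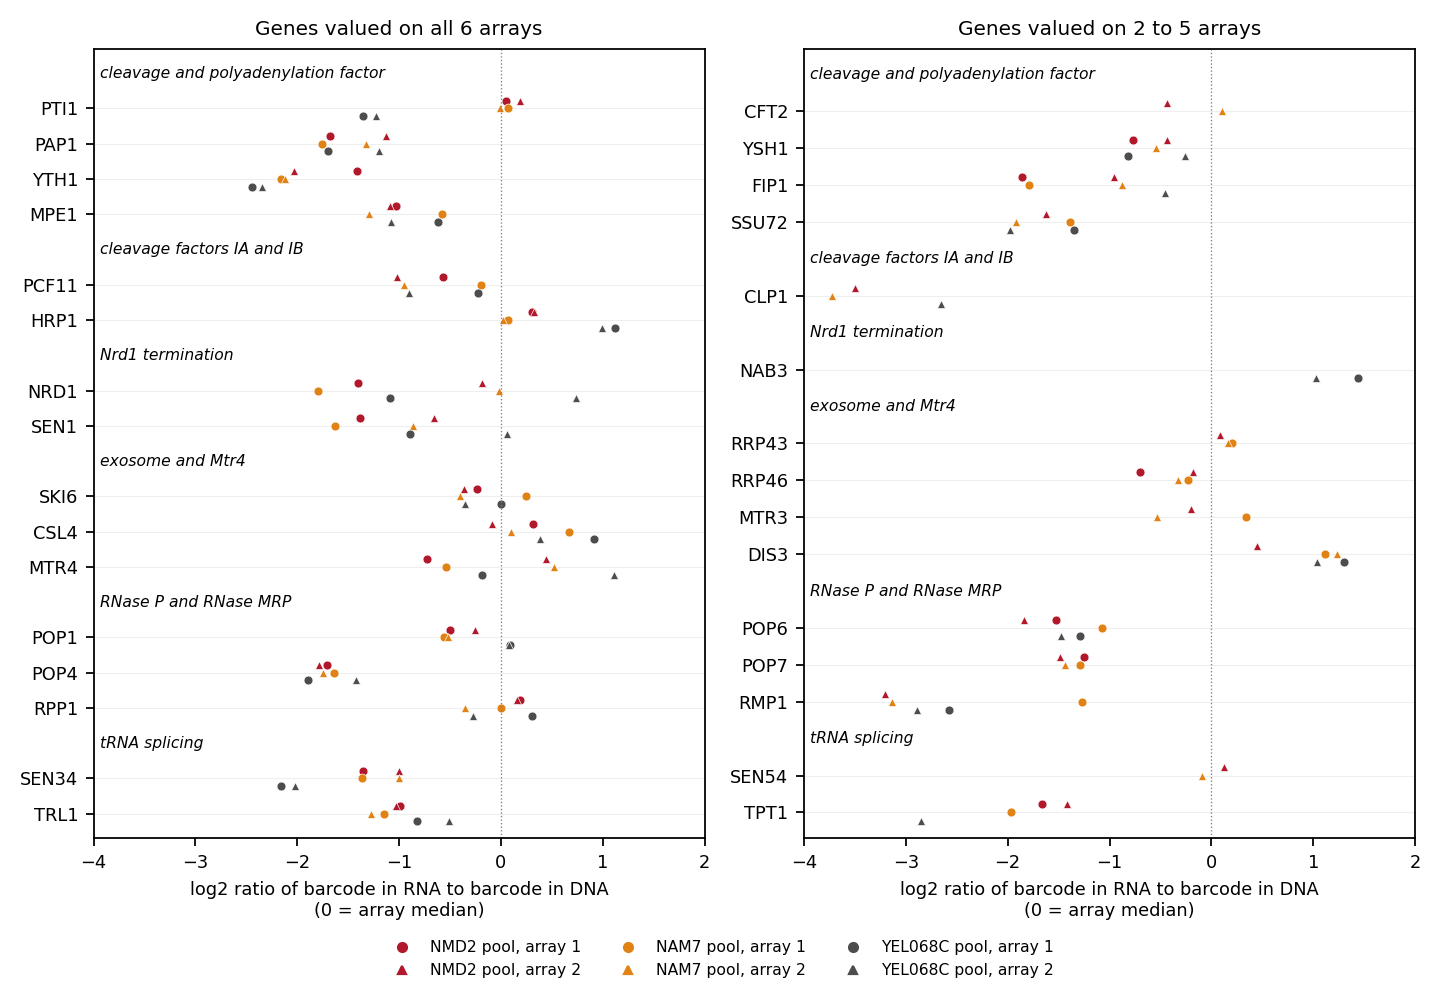
Log2 ratio of barcode signal, RNA over DNA (x axis, 0 is the array median) on every array, for the 16 genes valued on all 6 arrays (left) and the 15 valued on 2 to 5 arrays (right), grouped by role. Colours are pools and symbols the array number, and PTI1 and SEN34 have all mutant arrays to the right of both YEL068C arrays, HRP1 and POP1 to the left.

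With nonsense-mediated decay lost, PTI1 alone of the 16 tested mRNAs passed in the main fit, which has no block. With the replicate number of the arrays as a block, 10 of the 16 passed. Of these, 3 were higher (PTI1, SEN34, YTH1) and 7 lower (HRP1, SEN1, NRD1, POP1, MTR4, TRL1, CSL4). Both fits compare the mean of the NMD2 and NAM7 pools with the YEL068C pool, in limma at a Benjamini-Hochberg adjusted p of 0.05. Arrays of the same number deviated together in all pools (correlations 0.85 to 0.89), which is why the block is given. Over all 444 features the blocked fit called 59.9%, 29.7% higher and 30.2% lower. So 10 of 16 (62.5%) is close to the background, and the 3 higher and 7 lower are 18.8% and 43.8%. Below, rose and fell refer to calls of the blocked fit. Without the block PTI1 alone passed, against 4.05% of all features, and 4 of the 16 had an unadjusted p under 0.05, against 26.6%. The median change of the 16 was -0.14, against 0.00 over all features. All changes are read against the median of each array, and without centring the median change of all features was -0.12.

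Of the 13 listed CPF genes 4 could be tested. With the block PTI1 and YTH1 rose, as did 29.7% of all features, and PAP1 and MPE1 did not pass. PTI1 encodes a CPF subunit that also acts at the 3' ends of small nucleolar RNAs. Its levels were 0.05 and 0.19 in the NMD2 pool and 0.07 and -0.01 in the NAM7 pool, against -1.35 and -1.23 in the YEL068C pool. The 4 mutant arrays lay together near the array median, and both reference arrays far below it. The change was 1.36 on the log2 scale (SE 0.19, n = 4 against 2 arrays, adjusted p = 0.0437 in limma without the block and 2.4e-06 with it), a 2.57-fold higher ratio. It was 1.41 within arrays numbered 1 and 1.32 within arrays numbered 2. The call without the block was lost (adjusted p up to 0.215) when any array other than NAM7 replicate 2 was left out, without centring, and when genes missing on some arrays were tested too. With the block it held in all 6 such fits, with changes of 1.31 to 1.42.

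YTH1 encodes the CPF zinc-finger protein that binds RNA near the cleavage site. It had levels of -1.42 and -2.03 in the NMD2 pool and -2.16 and -2.13 in the NAM7 pool, against -2.44 and -2.35 in the YEL068C pool. All mutant arrays were higher than the reference arrays, and NMD2 replicate 1 stood out as the highest. The change was 0.46 (SE 0.24, adjusted p = 0.261 in limma without the block and 0.0184 with it). It came to 0.65 in arrays numbered 1 and 0.27 in arrays numbered 2, and the blocked call held in 4 of the 6 fits that left out an array. PAP1, the poly(A) polymerase gene, changed by -0.03 (blocked 95% interval -0.28 to 0.23), and MPE1, which encodes another essential CPF subunit, by -0.15 (-0.46 to 0.16).

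HRP1 had the largest decrease of the 16. Its levels were 0.31 and 0.32 in the NMD2 pool and 0.07 and 0.02 in the NAM7 pool, against 1.12 and 0.995 in the YEL068C pool. The arrays of each pool agreed closely, and both mutant pools lay below the reference. HRP1 fell by 0.88 on the log2 scale (SE 0.19, adjusted p = 0.0594 in limma without the block and 5.33e-05 with it). Its change ranked 18 from the lowest of 444. The difference was -0.93 within arrays numbered 1 and -0.83 within arrays numbered 2. PCF11, a cleavage factor IA subunit that binds the C-terminal domain of RNA polymerase II, changed by -0.12 (blocked 95% interval -0.39 to 0.14), and its 2 probes differed by at most 0.12 on any array.

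Both tested genes of the Nrd1 pathway, NRD1 and SEN1, fell with the block, as did 30.2% of all features, and neither passed without it. These changes lay on top of a large difference between the 2 arrays of each pool. NRD1 had levels of -1.41 and -0.19 in the NMD2 pool, -1.80 and -0.02 in the NAM7 pool, against -1.09 and 0.74 in the YEL068C pool. Array 1 minus array 2 was -1.22 for NMD2, -1.78 for NAM7 and -1.82 for YEL068C, so the pools overlapped unless same-numbered arrays were compared. Within arrays numbered 1 the change was -0.51 and within arrays numbered 2 it was -0.84. The fitted change of -0.68 had an SE of 0.71 without the block (adjusted p = 0.583 in limma) and 0.14 with it (adjusted p = 0.00138).

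SEN1, the longest coding sequence of the set at 6696 nucleotides, had levels of -1.39 and -0.66 in the NMD2 pool and -1.63 and -0.87 in the NAM7 pool, against -0.89 and 0.06 in the YEL068C pool. It showed the same order within each number, -0.62 for arrays numbered 1 and -0.82 for arrays numbered 2. SEN1 changed by -0.72 (SE 0.39, adjusted p = 0.278 in limma without the block and 0.000287 with it). Without the block, leaving out YEL068C replicate 2 moved the changes of NRD1 and SEN1 to 0.24 and -0.25, and leaving out YEL068C replicate 1 moved them to -1.59 and -1.19. With the block both passed in all 6 fits that left out an array.

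**Figure D2:**
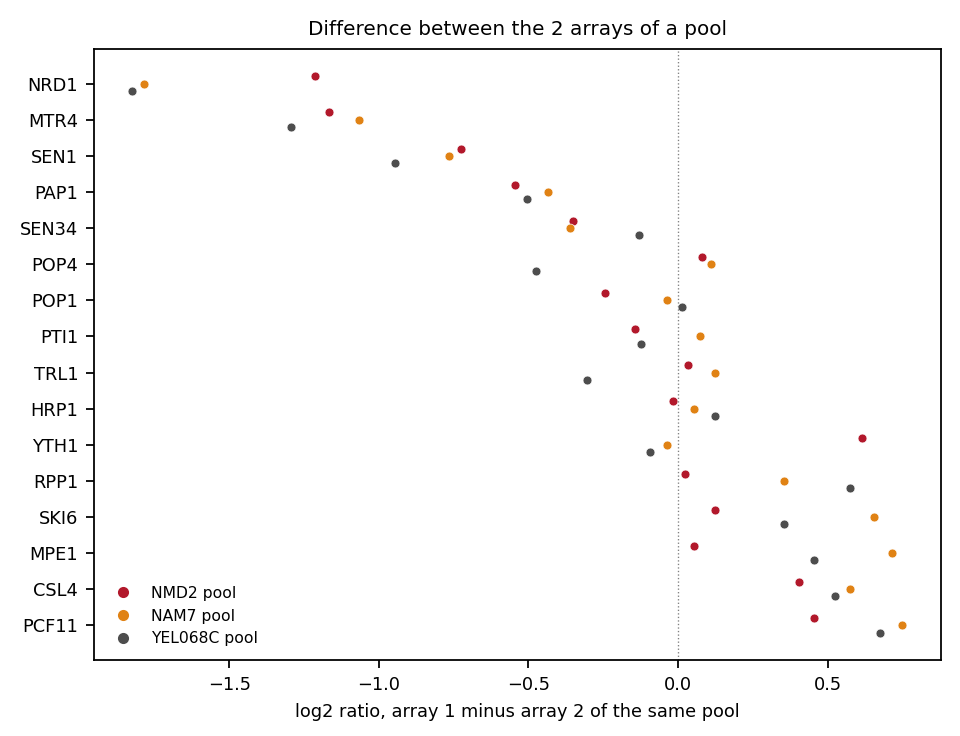
Difference between the log2 ratios of array 1 and array 2 of the same pool (x axis) for the 16 tested genes, coloured by pool. NRD1, MTR4 and SEN1 were lower on array 1 by more than 0.5 in every pool, and no gene of the set was higher by that much in every pool.

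The exosome helicase gene MTR4 shared this pattern. Its levels were -0.73 and 0.44 in the NMD2 pool and -0.54 and 0.53 in the NAM7 pool, against -0.19 and 1.11 in the YEL068C pool. In each set of same-numbered arrays the mutant pools were the lower ones, by 0.44 for number 1 and 0.62 for number 2. The change of -0.53 (SE 0.53, adjusted p = 0.555 in limma without the block) passed with the block (adjusted p = 0.00213) and stood at 0.12 without the block when YEL068C replicate 2 was left out. NRD1, SEN1 and MTR4 were the 3 genes of 16 that were lower on array 1 by over 0.5 in all pools, as were 53 of all 444 features (11.9%). What the arrays of one number shared is not given in the labels.

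CSL4 had levels of 0.32 and -0.09 in the NMD2 pool and 0.67 and 0.10 in the NAM7 pool, against 0.91 and 0.39 in the YEL068C pool. NAM7 replicate 1 lay between the reference arrays, and within each number both mutant arrays were below the reference array. Its change was -0.40 (SE 0.28, adjusted p = 0.393 in limma without the block and 0.011 with it), and the blocked call held in 3 of the 6 fits that left out an array. SKI6, a subunit of the exosome ring, changed by -0.01 (blocked 95% interval -0.30 to 0.28). Of the 3 tested genes of the exosome and Mtr4, MTR4 and CSL4 thus fell with the block, as did 30.2% of all features.

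Of the RNase P and RNase MRP genes, POP1 fell with the block, as did 30.2% of all features, and POP4 and RPP1 did not pass. POP1 encodes the largest protein subunit of both enzymes. It had levels of -0.51 and -0.26 in the NMD2 pool and -0.56 and -0.53 in the NAM7 pool, against 0.09 and 0.08 in the YEL068C pool. The reference arrays were nearly equal and all mutant arrays were lower. POP1 changed by -0.55 (SE 0.20, adjusted p = 0.144 in limma without the block and 0.00197 with it), with -0.62 and -0.47 within arrays numbered 1 and 2. POP4 was near -1.7 in all pools (change -0.06, blocked 95% interval -0.37 to 0.24), and its 2 probes differed by at most 0.15. RPP1, which encodes a subunit shared by both enzymes, changed by -0.02 (-0.31 to 0.28).

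Of the 6 listed tRNA splicing genes 2 could be tested. With the block SEN34 rose, as did 29.7% of all features, and TRL1 fell, as did 30.2%. SEN34 had levels of -1.35 and -1.0 in the NMD2 pool and -1.37 and -1.01 in the NAM7 pool, against -2.16 and -2.03 in the YEL068C pool. All mutant arrays were higher than the reference, and its 2 probes differed by at most 0.14 on any array. SEN34 rose by 0.91 (SE 0.23, adjusted p = 0.0731 in limma without the block and 5.09e-05 with it), and its change ranked 39 from the highest of 444, with 0.80 and 1.02 within arrays numbered 1 and 2. TRL1, the tRNA ligase gene, had levels of -0.995 and -1.03 in the NMD2 pool and -1.15 and -1.28 in the NAM7 pool, against -0.82 and -0.52 in the YEL068C pool. All mutant arrays were lower. It changed by -0.45 (SE 0.20, adjusted p = 0.21 in limma without the block and 0.00975 with it), by -0.25 and -0.64 within arrays numbered 1 and 2, and its blocked call held in 3 of the 6 fits that left out an array.

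Over the 16 genes the mutant arrays lay entirely on one side of the YEL068C arrays for 6 (PTI1, SEN34, YTH1, HRP1, POP1, TRL1), or 37.5%, against 41.9% of all features.

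Taken separately, the mutant pools gave similar sizes, and both comparisons share the YEL068C arrays. In the NMD2 pool 9 of the 16 passed with the block, 3 higher and 6 lower, where 53.8% of all features passed, 28.4% higher and 25.5% lower. In the NAM7 pool 8 passed, 2 higher and 6 lower, where 50.7% of all features did, 25.7% higher and 25% lower. Without the block 0 of the 16 and 0 of all features passed in either pool in limma, with 4 of the 16 at an unadjusted p under 0.05 in each, against 22.3% of all features in the NMD2 pool and 20.5% in the NAM7 pool. PTI1 changed by 1.41 in the NMD2 pool and 1.32 in the NAM7 pool, SEN34 by 0.92 and 0.91, and HRP1 by -0.75 and -1.02. YTH1 (0.67, blocked adjusted p = 0.00608 in limma) and CSL4 (-0.54, 0.00556) passed in the NMD2 pool, and their values in the NAM7 pool were 0.25 (0.249) and -0.27 (0.124). TRL1 passed in the NAM7 pool (-0.55, 0.00824), with -0.35 (0.0658) in the NMD2 pool. When genes missing on some arrays were fitted too, TRL1 passed with the block in both pools. In the NMD2 pool 58.2% of all features did so in that fit.

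**Figure D3:**
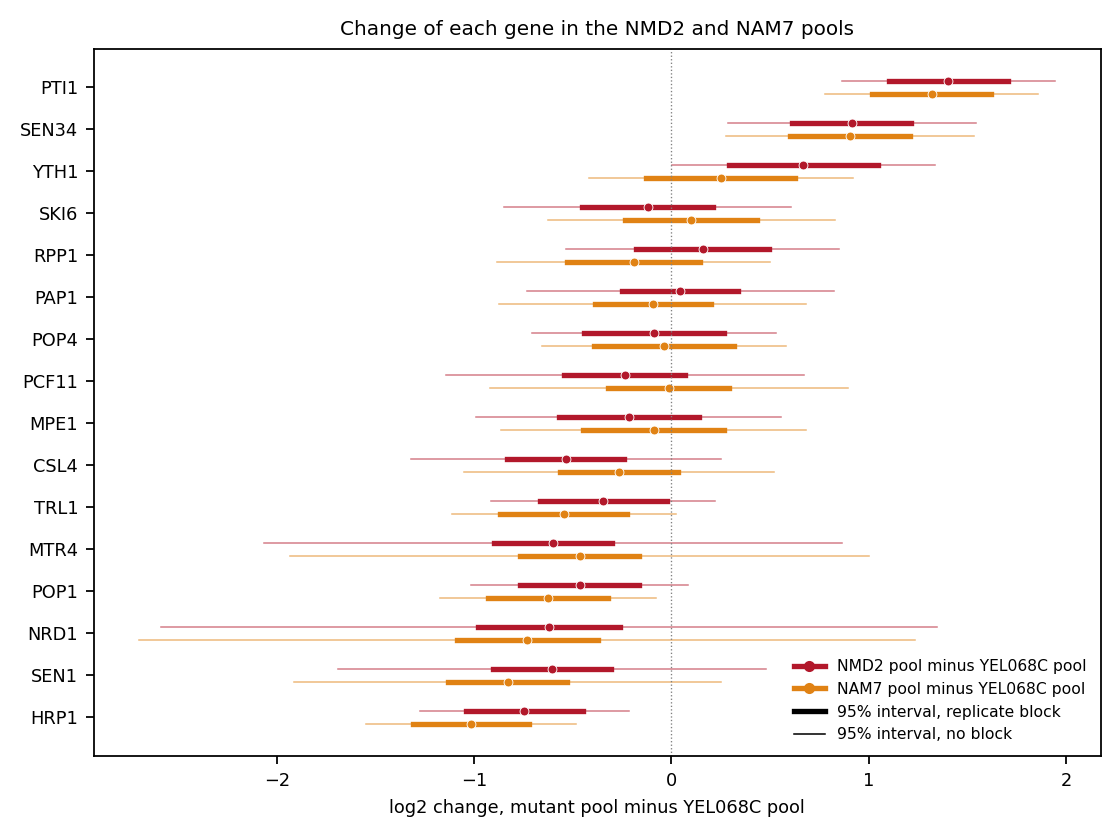
Log2 change of each of the 16 genes in the NMD2 and NAM7 pools against the YEL068C pool (x axis), with 95% intervals from limma with the replicate block (thick) and without it (thin), ordered by the mean change. PTI1 and SEN34 lie above 0 and HRP1 below 0 in both pools, and the thin intervals are widest for NRD1 and MTR4.

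The direct comparison asks whether the loss of either factor leaves the same levels. By limma 0 of the 16 genes passed between the NMD2 and NAM7 pools, with or without the block, as did 0% of all features. Without the block 0 of the 16 had an unadjusted p under 0.05, against 0.45% of all features, and the median difference was 0.10, against 0.02 over all features. With the block 2 of the 16 had an unadjusted p under 0.05, against 12.4% of all features. These were YTH1, higher in the NMD2 pool by 0.42 (blocked 95% interval 0.04 to 0.80), and RPP1, higher by 0.35 (0.01 to 0.69). Neither size was stable in the blocked fits that left out an array. The YTH1 difference was 0.08 without NMD2 replicate 1, 0.27 without NAM7 replicate 1 and 0.76 without NMD2 replicate 2, and the RPP1 difference was 0.57 without NMD2 replicate 1 and 0.13 without NMD2 replicate 2. RPP1 had levels of 0.19 and 0.16 in the NMD2 pool, against 0.00 and -0.36 in the NAM7 pool, and whether its distance to the deleted NMD2 matters was not tested. For PTI1 the difference was 0.09 (blocked 95% interval -0.22 to 0.39), for SEN34 0.01 (-0.29 to 0.31) and for HRP1 0.27 (-0.03 to 0.57). Differences up to these limits are not excluded, and the intervals without the block were wider. In 5 of 16 genes (HRP1, POP1, RPP1, TRL1, YTH1) both NMD2 arrays were above both NAM7 arrays, against 9.01% of all features, and in 0 genes below, against 8.33%. In either direction the background is 17.3%.

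Coding length ran alongside the change. Across the 16 genes Pearson's r between the change and log10 coding length was -0.54 and Spearman's rho -0.73, against -0.57 and -0.62 across all 433 named genes. These points share the same arrays and are not independent. Without the lengths farthest from the median (YTH1 and SEN1) the values over 14 genes were -0.45 and -0.66. All 4 genes over 2000 nucleotides (SEN1, MTR4, POP1, TRL1) fell with the block, as did 85 of the 128 named genes of that length.

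Among the 6 genes of up to 1000 nucleotides the median change was -0.01, against 0.43 over the 116 named genes of that length. SEN34 and YTH1 rose and CSL4 fell, while 65 of the 116 rose and 12 fell. In the class over 1000 and up to 2000 nucleotides PTI1 rose and HRP1 and NRD1 fell, and PAP1, MPE1 and PCF11 did not pass, while 60 of the 189 named genes of that length rose and 34 fell. The median there was -0.14 for the 6 genes, against 0.09 over the 189. The length classes were chosen with earlier results known and carry no test.

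**Figure D4:**
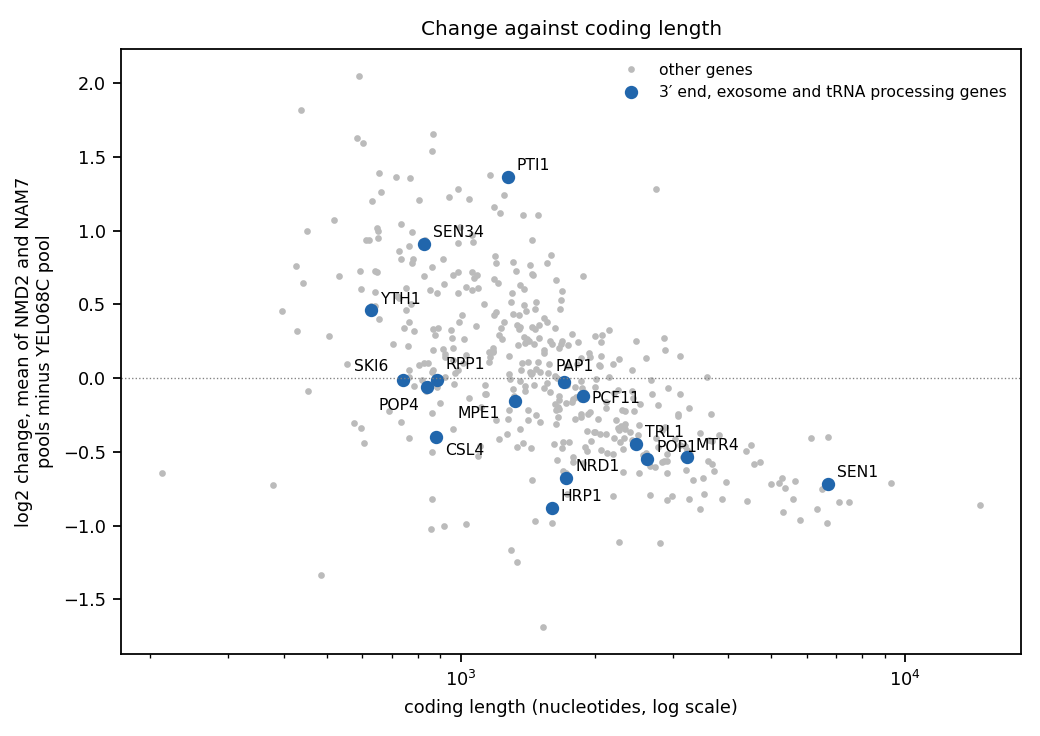
Log2 change in the mean of the NMD2 and NAM7 pools against the YEL068C pool (y axis) by coding length in nucleotides (x axis, log scale), for the 16 genes (blue) and the other named genes (grey). PTI1 lies high and HRP1 low among genes of similar length, and the 4 longest blue points all lie below 0.

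The 15 genes with missing values fell into 2 kinds. For 8 of them at least 1 array of every pool had a value, and 7 lacked a pool altogether. CFT2, RRP43, RRP46, MTR3, POP7 and SEN54 had no value on either YEL068C array, as had 58 of the 670 features valued on 2 or more arrays (8.66%). NAB3, the RNA-binding partner of Nrd1, was the opposite case. It had no value on any mutant array, as for 2 of the 670 features (0.299%), against levels of 1.44 and 1.03 in the YEL068C pool. A missing value is not a level of 0, and the reason for the missing values was not tested. Arrays numbered 2 gave values for 25 to 30 of the 31 genes and arrays numbered 1 for 22 to 26.

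Genes lacking some arrays were also fitted, without the missing arrays, in limma with the block, where 524 features could be fitted and 322 (61.5%) passed in the mean of both mutant pools. Of the 22 genes of the set in that fit 12 passed in the mean, 12 in the NMD2 pool (58.2% of all features) and 9 in the NAM7 pool (52.1%). This fit was added after the data were seen. FIP1, whose product tethers the poly(A) polymerase to CPF, had levels of -1.86 and -0.96 in the NMD2 pool and -1.79 and -0.88 in the NAM7 pool, against -0.46 on YEL068C replicate 2, the 1 reference array with a value. Its change was -0.47 in that fit (adjusted p = 0.0312) and -0.96 without the block (adjusted p = 0.326), where array 1 values enter for the mutant pools only. YSH1, the CPF endonuclease gene (-0.15, blocked adjusted p = 0.385 in limma), and SSU72, a phosphatase gene of CPF (0.16, 0.384), did not pass. CLP1, a cleavage factor IA subunit gene, was valued on arrays numbered 2 alone and had very low levels, -3.50 in the NMD2 pool and -3.73 in the NAM7 pool, against -2.66 in the YEL068C pool, with no test.

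DIS3 encodes a nuclease of the exosome. It had a level of 0.45 on NMD2 replicate 2 and levels of 1.12 and 1.24 in the NAM7 pool, against 1.30 and 1.04 in the YEL068C pool. The single NMD2 value was the lowest, while the NAM7 and reference arrays overlapped. In the blocked fit of genes with missing arrays DIS3 changed by -0.71 in the NMD2 pool and by 0.01 in the NAM7 pool. The mean of both mutant pools, -0.35, thus came from the single NMD2 array and does not show a lower level of DIS3 in both. Its difference between the NMD2 and NAM7 pools there was -0.73 (blocked adjusted p = 0.0487 in limma, where 1.91% of all features passed the threshold). That value rests on the single NMD2 array, whose own spread was not measured. The ring subunit genes measured in the mutant pools alone had levels between -0.71 and 0.34. RRP43 had 0.08 on the 1 NMD2 array with a value and 0.20 and 0.16 in the NAM7 pool, and its 2 probes differed by at most 0.07. RRP46 had -0.71 and -0.18 in the NMD2 pool and -0.23 and -0.33 in the NAM7 pool. MTR3 had -0.20 on 1 NMD2 array and 0.34 and -0.54 in the NAM7 pool.

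POP6 and POP7, which encode a pair of RNase P and MRP subunits that bind the RNA together, had low levels. POP7 had -1.26 and -1.49 in the NMD2 pool and -1.29 and -1.44 in the NAM7 pool. POP6 had -1.53 and -1.84 in the NMD2 pool and -1.07 on NAM7 replicate 1, against -1.29 and -1.48 in the YEL068C pool (change -0.08, blocked adjusted p = 0.675 in limma). RMP1, the subunit gene specific to RNase MRP, had -3.20 on NMD2 replicate 2 and -1.27 and -3.14 in the NAM7 pool, against -2.58 and -2.90 in the YEL068C pool. NAM7 replicate 1 stood far above all other arrays. The blocked mean change of 0.29, with 1 NMD2 array behind it, did not pass. In the NAM7 pool RMP1 changed by 0.54 (blocked adjusted p = 0.0101 in limma). Unblocked, the same change had an SE of 0.60 and an adjusted p of 0.692 in limma. It was 1.31 within arrays numbered 1 and -0.24 within arrays numbered 2. The higher RMP1 level in the NAM7 pool thus rests on NAM7 replicate 1. TPT1, which encodes the phosphotransferase that completes tRNA splicing, had -1.67 and -1.42 in the NMD2 pool and -1.97 on NAM7 replicate 1, against -2.86 on YEL068C replicate 2. Its change of 1.03 (SE 0.35, adjusted p = 0.185 in limma without the block) could not be fitted with the block. SEN54 had 0.12 on 1 NMD2 array and -0.10 on 1 NAM7 array, and CFT2, a CPF subunit gene, had -0.44 on 1 NMD2 array and 0.11 on 1 NAM7 array.

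Other genes of the same processes, 42 in a second list that covered termination and poly(A) binding, exosome cofactors and RNA decay, and tRNA maturation, gave 14 tested genes. With the block 2 rose, 6 fell and 6 did not pass in the mean of both mutant pools, with a median change of -0.26. Over all features 59.9% passed in that fit, 29.7% higher and 30.2% lower. The share of the 14 that passed in either direction lay near this, with a smaller share higher and a larger share lower. The subgroups hold at most 7 tested genes, too few to set against these shares. Without the block 0 of the 14 passed in limma, against 4.05% of all features, and the lowest adjusted p was 0.0697, for DCP2. In that fit 2 of them (DCP2 and THG1) had an unadjusted p under 0.05, against 26.6% of all features. THG1, the tRNA-His guanylyltransferase gene, changed by 1.36 (SE 0.35, adjusted p = 0.08 in limma without the block and 4.18e-06 with it), and TAD3, of the tRNA adenosine deaminase, by 0.61 (blocked adjusted p = 0.000798). DCP2, the decapping enzyme gene, changed by -0.83 (blocked adjusted p = 9.39e-05 in limma) and FCP1, a phosphatase gene acting on RNA polymerase II, by -0.51 (0.00415). GCD10, a tRNA methyltransferase subunit gene, stood at -0.48 (0.0096), GRC3, a polynucleotide kinase gene, at -0.47 (0.017), TRZ1, the tRNA 3' endonuclease gene, at -0.32 (0.0344) and CCA1, which adds the CCA end to tRNAs, at -0.31 (0.0352). By subgroup, 2 of 7 tRNA maturation genes rose and 3 fell, 2 of 4 decay and cofactor genes fell, and 1 of 3 termination and poly(A) genes fell.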

How the data were processed

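Two-colour barcode arrays (6, 2 per pool) were used. The authors deposited 1 table of processed values for 15743 probes, read here as log2 ratios, made from RNA barcodes in Cy3 and DNA barcodes in Cy5, per the labels' protocols. The base of the logarithm was inferred from the range, and the sources do not give the scaling or scanner filters. Each deposited column has a median of 0. Scanner signals were not analysed here, and the number of arrays limits the precision. The sources used here do not say which probes are up tags, to which the series text limits its reading, and all 843 probes with a value on at least 1 array were used, 827 of them with 1 gene symbol, 0 with several and 16 with none in the platform table.

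The sign was turned, the probes of a gene with values on all 6 arrays were averaged (444 features, 433 named), and the median of each array over these features was set to 0. Pools were taken from the sample titles. Differences were fitted with limma 3.58.1 in R 4.3.3 (lmFit, eBayes; two-sided tests, adjusted by Benjamini-Hochberg across all features, threshold 0.05), 1 term per pool, 3 residual degrees of freedom, or 2 with the replicate number as a block. The numbers come from the titles. Deviations of same-numbered arrays from their pool means correlated at 0.85 to 0.89 between pools, so the numbers were treated as pairs. The scripts were tested on simulated data. Coding length is the gene span in RefSeq assembly R64, matched by symbol or synonym. Members, lists and tests were chosen with earlier results of these data known. Every gene of the set valued on at least 2 arrays may be named. Genes of the second list were named where they passed in the mean of both mutant pools, at most 6 per direction. Alternatives tried were the block, no centring, quantile normalization, other probe choices, a trended robust prior, genes with missing arrays, and leaving out each array.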

Additional observations from a re-analysis of the deposited data

Results flagged for a closer look

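DIS3, an exosome nuclease gene, drew attention by a difference between the mutant pools. In limma with the replicate block, fitted over genes with missing arrays (a fit added after the data were seen), its change in the NMD2 pool was -0.73 relative to the NAM7 pool (blocked 95% interval -1.15 to -0.31, adjusted p = 0.0487), where 10 of 524 features passed. The NMD2 side rests on the single array NMD2 replicate 2 (0.45), against 1.12 and 1.24 in the NAM7 pool, so the spread on the NMD2 side was not measured but assumed equal to that of the other pools. Without the block the difference was -0.73 with an adjusted p of 1.0 in limma. Pools of 2 arrays are too small for a test of single outlying arrays.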

How the results depend on the processing

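With the replicate number as a block, 10 genes of the set passed in the mean of both mutant pools (266 of all features), 9 for NMD2 alone (239) and 8 for NAM7 alone (225), against 1, 0 and 0 without it. Between the NMD2 and NAM7 pools the block changed no call among the 16 genes valued on all arrays. Without centring 0 genes of the set and 0 of all features passed in the mean, and quantile normalization gave 2 (21 of all features). With genes missing on some arrays the count was 0 (0 of all features), and with the block added 12 (322), with 12 (305) for NMD2 alone, 9 (273) for NAM7 alone and 1 (10) between the mutant pools.

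Leaving out 1 array gave 0 to 1 genes of the set without the block and 8 to 10 with it in the mean of both mutant pools (0 to 9 and 195 to 247 of all features). In the NMD2 pool these were 0 and 5 to 9 (0 to 7 and 124 to 235 of all), in the NAM7 pool 0 and 6 to 8 (0 and 150 to 203 of all), and between the mutant pools 0 (0 to 5 of all). A pool left with 1 array was assumed to vary like the others, and the blocked fits then had 1 residual degree of freedom.

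The median change of the 16 genes was -0.26 without centring, -0.20 within arrays numbered 1, -0.23 within arrays numbered 2, and -0.25 to -0.058 with an array left out. In the NMD2 pool it was -0.35 without centring, -0.28 within number 1, and -0.32 to -0.13 with an array left out. In the NAM7 pool it was -0.26 without centring, -0.26 within number 2 and -0.30 to 0.0025 with an array left out. Between the mutant pools it was -0.039 to 0.18 with an array left out. Median levels without centring were -0.61 in the NAM7 pool and -0.25 in the YEL068C pool.

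With an array left out the change ran over 0 for PAP1 (-0.28 to 0.23), MPE1 (-0.38 to 0.075), PCF11 (-0.46 to 0.21), SKI6 (-0.19 to 0.17), POP4 (-0.35 to 0.22), RPP1 (-0.30 to 0.27), NRD1 (-1.59 to 0.24) and MTR4 (-1.18 to 0.12). It also did so for NRD1 and MTR4 in the NMD2 pool (-1.53 to 0.29 and -1.25 to 0.048) and in the NAM7 pool (-1.64 to 0.18 and -1.11 to 0.18). The block kept NRD1 and MTR4 below 0 in every such fit. PAP1 stood at 0.00714 under quantile normalization. The cause was not tested for any of these. The changes of PTI1, SEN34, YTH1, HRP1, SEN1, POP1, TRL1 and CSL4 kept their direction in all 22 alternatives run. The number of arrays and the missing values limit the precision, and spread between independent crosses could not be measured.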
